A study of Mus musculus with 2 samples.

Results

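The genes described here are 36 mouse genes of glycolysis, the pentose phosphate pathway and the entry of pyruvate into mitochondria, taken by gene symbol from 55536 annotated genes. All 36 symbols were found, and 24 belong to glycolysis and lactate handling, 7 to the pentose phosphate pathway and 5 to pyruvate entry. The study measured total RNA, with ribosomal RNA removed, in the cytosolic fraction of primary macrophages grown from the bone marrow of C57BL/6J mice. The cells had been given 100 ng/ml of lipid A, the moiety of the bacterial endotoxin sensed by the receptor Tlr4, for 75 min. There is 1 group of 2 libraries, each made from 1 µg of RNA and called replicate 1 and replicate 2 below. Both carry the same donor identifier, and sex and age were not collected. The labels do not say whether the replicates were separate animals or cultures, so the spread between them may be technical. Unstimulated cells were not analysed here, so the levels below do not show what lipid A changed, and no test between conditions was possible.

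Glycolysis turns glucose into pyruvate in the cytosol. The hexokinases trap glucose in the cell, the phosphofructokinases commit it to the pathway, and the PFKFB enzymes set the level of the small sugar phosphate that activates phosphofructokinase. Lactate dehydrogenase and the monocarboxylate transporters dispose of pyruvate as lactate, while the mitochondrial pyruvate carrier and the pyruvate dehydrogenase complex take it into mitochondrial oxidation. The pentose phosphate pathway branches off after hexokinase and yields NADPH and ribose phosphate. Macrophages are known to lean on glycolysis when activated through Tlr4, and many of these steps can be carried out by isozymes from separate genes or by alternative transcripts of one gene, which are what the sequences below set apart.

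The first set shows the pair of mutually exclusive exons of Pkm, pyruvate kinase, because within the coding sequence these exons tell the transcript of the M1 enzyme (Pkm-202, upstream exon, chr9:59675029-59675195, plus strand) from that of the M2 enzyme (Pkm-201, downstream exon, chr9:59675568-59675734, plus strand). Each is exon 9 of 11 in its transcript and 167 bases long, and 64 bases, in capitals, differ between them, an identity of 61.7%. Sequences are from the GENCODE M21 transcripts on mm10, written 5′ to 3′ on the strand of the gene.
Pkm-201 exon: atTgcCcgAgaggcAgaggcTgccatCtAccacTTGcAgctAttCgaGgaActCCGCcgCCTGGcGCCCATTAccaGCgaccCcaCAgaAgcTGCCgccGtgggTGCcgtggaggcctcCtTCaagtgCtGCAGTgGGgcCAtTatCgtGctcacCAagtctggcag
Pkm-202 exon: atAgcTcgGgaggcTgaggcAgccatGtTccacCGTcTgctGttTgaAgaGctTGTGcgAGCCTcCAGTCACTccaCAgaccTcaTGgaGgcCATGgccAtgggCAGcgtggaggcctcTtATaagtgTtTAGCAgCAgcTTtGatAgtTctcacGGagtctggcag

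The second set is the corresponding pair in Pfkp, the platelet-type phosphofructokinase. Within the coding sequence its leading transcripts also differ by 1 exon of equal length. The exon of Pfkp-201 lies at chr13:6593101-6593253 and that of Pfkp-207 at chr13:6597859-6598011, both on the minus strand. Each is exon 16 of 22 and 153 bases long, with 63 differing bases in capitals and an identity of 58.8%.
Pfkp-201 exon: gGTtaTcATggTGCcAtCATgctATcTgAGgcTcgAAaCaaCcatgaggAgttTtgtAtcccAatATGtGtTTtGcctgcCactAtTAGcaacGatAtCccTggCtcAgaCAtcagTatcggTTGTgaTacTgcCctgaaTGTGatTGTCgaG
Pfkp-207 exon: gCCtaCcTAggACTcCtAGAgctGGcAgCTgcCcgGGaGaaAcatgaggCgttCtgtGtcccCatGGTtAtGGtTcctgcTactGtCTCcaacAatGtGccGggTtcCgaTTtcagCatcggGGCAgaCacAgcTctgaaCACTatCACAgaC

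The third set shows how the hexokinase transcripts begin, since the coding sequence of Hk1 starts in different first exons. Capitals mark the start codon. The start of Hk1-202 (chr10:62340013-62340075, minus strand) is 63 bases long and has the same length as that of Hk2-201 (chr6:82773918-82773980, minus strand), with which it shares 43 bases, or 68.3%. Hk1-201 starts with 75 bases from 2 exons between 62353058 and 62358362 on the minus strand of chromosome 10, and holds a further 69-base coding exon of its own downstream. Hk1-205 starts with 60 bases at chr10:62342501-62342560, minus strand.
Hk1-202 own coding start: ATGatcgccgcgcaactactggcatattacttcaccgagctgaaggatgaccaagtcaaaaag
Hk2-201 own coding start: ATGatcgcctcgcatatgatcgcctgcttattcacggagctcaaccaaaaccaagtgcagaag
Hk1-201 own coding start: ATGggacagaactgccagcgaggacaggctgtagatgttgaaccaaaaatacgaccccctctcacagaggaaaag
Hk1-205 own coding start: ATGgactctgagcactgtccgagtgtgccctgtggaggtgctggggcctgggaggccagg

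The last sequence is a cassette exon of Pfkfb3, the best represented PFKFB gene here, which adds 87 bases (29 codons) in the end region of the coding sequence. It is exon 14 of 16 of Pfkfb3-214, at chr2:11481247-11481333 on the minus strand. It is shown in capitals with 12 bases of each neighbouring exon.
Pfkfb3-214 cassette exon: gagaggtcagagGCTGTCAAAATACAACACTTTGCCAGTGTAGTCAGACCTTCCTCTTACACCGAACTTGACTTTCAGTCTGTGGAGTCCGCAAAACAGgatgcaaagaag

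Most of the 36 genes were present in the cytosolic RNA of these cells. Levels are given as TPM, a level per length that can be compared between genes, with the value of replicate 1 first. At a mean of 1 TPM or more, 35 of the 36 genes were detected, and the same number passed in each library alone. For comparison, 39.3% of the 22015 nuclear-encoded protein-coding genes reached that level. The median level of the 36 genes was 14.9 and 14.5 TPM in the respective libraries, and 6.02 and 6.19 TPM over the protein-coding genes detected. The 36 genes were chosen with earlier results of these data known, so neither comparison tests whether they stand out. The gene below 1 TPM was Fbp1, the gluconeogenic bisphosphatase that opposes phosphofructokinase, with 1 and 2 counts. Of the rest, 9 genes had 50 TPM or more and 12 had between 1 and 5 TPM.

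Together the 36 genes summed to 1187 and 1224 TPM, which was 0.550% and 0.560% of all TPM in nuclear-encoded protein-coding genes. Glycolysis held 0.428% ± 0.00798 of that total (SD, n = 2), the pentose phosphate pathway 0.0829% ± 0.00336 and pyruvate entry 0.0439% ± 0.00394. The libraries summed to 55596625 and 50157146 counts over genes. Nuclear-encoded protein-coding genes held 21.6% and 21.9% of TPM, so that a TPM here counts against a total made largely of RNA of other genes. All 10 macrophage markers were detected, with summed levels of 6685 and 7050 TPM. Of 8 neutrophil markers 3 were detected (29.5 and 31.1 TPM summed over the list, Ly6g at 0), and none of 5 erythroid, 5 T and B cell or 5 stromal markers was. The nuclear RNA Malat1 had 158 and 799 TPM and Neat1 had 14.8 and 64.6 TPM, both higher in replicate 2. In a bulk sample, fewer cells of a kind and less RNA per cell cannot be told apart.

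**Figure D1:**
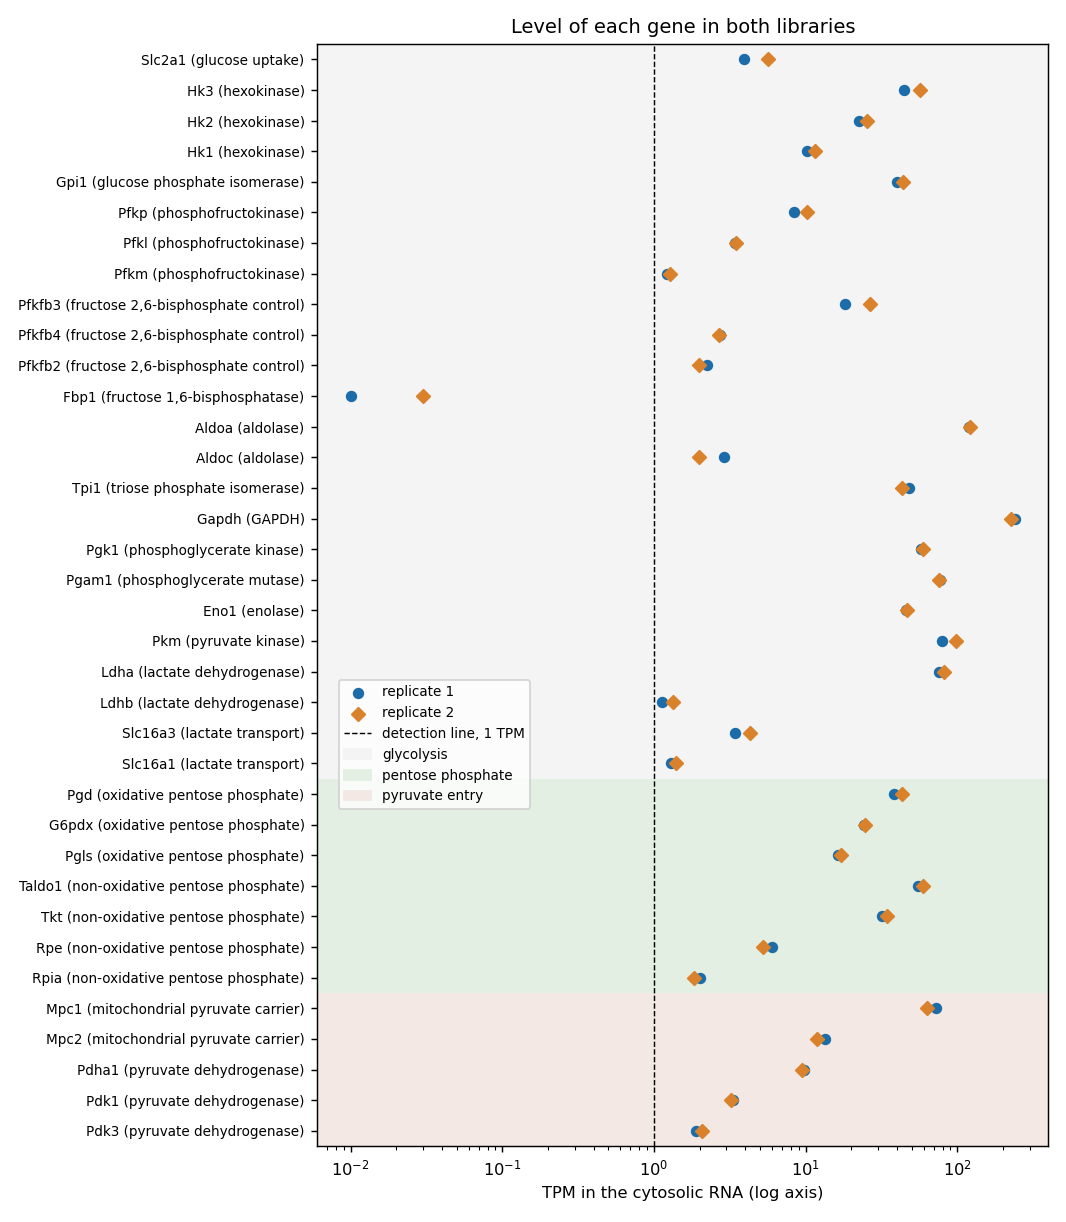
Level of each of the 36 genes in replicate 1 (circles) and replicate 2 (diamonds), in TPM on a log axis, ordered by pathway step, with shading for the 3 arms and a dashed line at 1 TPM. Gapdh stood highest at 241 and 225 TPM, and all genes except Fbp1 lay right of the line in both libraries.

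The only glucose transporter among the 36 genes was present at a low level, and the hexokinases at much higher ones. Slc2a1, which encodes the basal transporter GLUT1 (chr4:119108711-119137983), had 3.92 and 5.68 TPM. Hk3 (chr13:55005985-55021385), a hexokinase typical of myeloid cells, had 44.5 and 56.7 TPM. Hk2 (chr6:82725025-82774454), the inducible form, had 22.5 and 25.4 TPM. Hk1 (chr10:62268855-62379908), the form found in most tissues, had 10.2 and 11.5 TPM. The 3 hexokinases kept the same order in both libraries without overlap. Hk3 was 1.98- and 2.23-fold above Hk2, and Hk2 was 2.21-fold above Hk1 in each library. Of the summed hexokinase TPM, Hk3 thus made up 59.1% ± 2.03 (SD, n = 2), Hk2 28.2% ± 1.41 and Hk1 12.7% ± 0.624. A second set of estimates from the same libraries, described below, kept this order. It gave 63.3% for Hk3, 21.9% for Hk2 and 14.8% for Hk1, so the distance of Hk2 from the others depended on the estimate.

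Phosphofructokinase was the lowest of the enzymatic steps that lead from glucose to pyruvate. Its 3 genes summed to 13.0 and 14.9 TPM, against 77.1 and 93.6 TPM for the hexokinases before it. Gpi1, the isomerase between these steps, had 40.2 and 43.6 TPM. Pfkp led the phosphofructokinases with 8.38 and 10.2 TPM. Pfkl, the liver type, had 3.41 and 3.47 TPM, and Pfkm, the muscle type, had 1.22 and 1.28 TPM. The genes did not overlap, and Pfkp held 66.3% ± 2.65 of the family's TPM (SD, n = 2). Its lead over Pfkl was 2.46-fold in replicate 1 and 2.93-fold in replicate 2.

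Among the PFKFB genes, Pfkfb3 (chr2:11471433-11554077), whose enzyme strongly favours making the activator of phosphofructokinase, stood far above its relatives. It had 18.1 TPM in replicate 1 and 26.8 TPM in replicate 2, the widest spread of any gene above 10 TPM here relative to its mean. Pfkfb4 had 2.74 and 2.68 TPM and Pfkfb2 had 2.25 and 1.97 TPM. Pfkfb3 exceeded Pfkfb4 by 6.60-fold and 9.98-fold, and its share of the family was 81.8% ± 4.83 (SD, n = 2). Fbp1, which works against phosphofructokinase, had 0.01 and 0.03 TPM, at or under the 3 counts per library taken as the floor.

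The lower part of glycolysis held the highest levels. Aldoa (chr7:126795234-126800751), the aldolase of muscle and most other tissues, had 120.2 and 120.4 TPM, and Aldoc, the brain type, had 2.88 and 1.98 TPM. Aldoa therefore made up 98.0% ± 0.510 of aldolase TPM (SD, n = 2). Tpi1, which interconverts the triose phosphates, had 48.2 and 43.4 TPM. Gapdh (chr6:125161715-125166467), the dehydrogenase that makes the NADH of glycolysis, had 241 and 225 TPM. It was the highest of the 36 genes, at 2.00-fold and 1.87-fold the level of Aldoa.

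The steps after Gapdh lay well below it. Pgk1, the first step to make ATP, had 58.0 and 59.4 TPM, and Pgam1, the phosphoglycerate mutase, had 77.3 and 75.5 TPM. Eno1, the enolase of most tissues, had 45.6 and 46.6 TPM. Pkm (chr9:59656368-59679375), which makes pyruvate, had 79.7 and 97.9 TPM, and in both libraries it stood above Pgam1 and Ldha. In replicate 1 these 3 genes lay close together, between 76.1 and 79.7 TPM, and Ldha and Pgam1 changed places between the libraries.

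At the branch to lactate, the A subunit of lactate dehydrogenase was nearly alone. Ldha (chr7:46841475-46855627) had 76.1 and 81.6 TPM, and Ldhb, the subunit that dominates in heart, had 1.13 and 1.34 TPM. Ldha was 67.3- and 60.9-fold above Ldhb and held 98.5% ± 0.108 of their summed TPM (SD, n = 2). The lactate transporters among the 36 genes were low. Slc16a3, which encodes the exporter MCT4, had 3.40 and 4.31 TPM, and Slc16a1, which encodes MCT1, had 1.29 and 1.40 TPM. Slc16a3 was thus 2.64- and 3.08-fold above Slc16a1, though the length correction matters here, since Slc16a3 held 74.0% of their TPM and 58.7% of their counts.

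**Figure D2:**
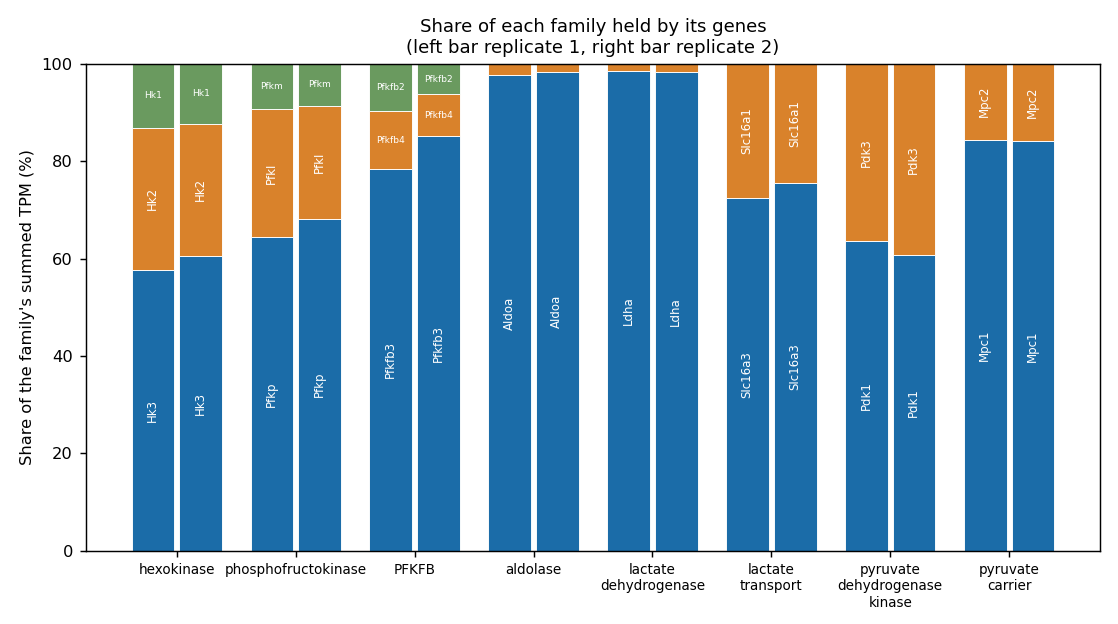
Share of the summed TPM of each of 8 gene families held by its genes, in percent, with replicate 1 as the left and replicate 2 as the right bar of each pair. Unlabelled slivers are Aldoc and Ldhb. Related genes that are described only further below, such as Slc16a7 and Pdk2, are left out of the families. Slc16a7, at 12.3 and 13.9 TPM, stood above Slc16a3. Among the genes shown, the leading gene of every family was the same in both libraries, from Hk3 at 59.1% to Ldha at 98.5%.

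In the pentose phosphate pathway, enzymes of the NADPH-making branch and of the sugar-exchanging branch were present at similar summed levels, 79.1 and 84.9 TPM against 94.7 and 101.4 TPM. Of the NADPH-making branch, Pgd, the phosphogluconate dehydrogenase, had 38.5 and 43.2 TPM. G6pdx (chrX:74409483-74429194), the X-linked dehydrogenase of the first step, had 24.2 and 24.6 TPM. Pgls, the lactonase between them, had 16.5 and 17.1 TPM. The 3 genes did not overlap, and Pgd was 1.59- and 1.76-fold above G6pdx.

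In the sugar-exchanging branch, the transferases stood well above the isomerases. Taldo1, transaldolase, had 54.7 and 59.8 TPM, and Tkt, transketolase, had 32.1 and 34.5 TPM. Rpe, the ribulose phosphate epimerase, had 5.96 and 5.22 TPM, and Rpia, the ribose phosphate isomerase, had 2.01 and 1.85 TPM. Rpia was the lowest of the 7 pentose phosphate genes in both libraries.

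At the entry of pyruvate into mitochondria, the subunits of the pyruvate carrier differed widely. Mpc1 (chr17:8282904-8297661) had 72.5 and 63.2 TPM and Mpc2 had 13.4 and 11.9 TPM, and their proteins are known to work as a heterodimer. The ratio of Mpc1 to Mpc2 was 5.41 and 5.30 in the libraries. Pdha1, the catalytic alpha subunit of pyruvate dehydrogenase, had 9.73 and 9.43 TPM. Of the kinases that switch the complex off, Pdk1 had 3.31 and 3.22 TPM and Pdk3 had 1.90 and 2.08 TPM. Pdk1 held 62.1% ± 1.96 of the TPM of the pair (SD, n = 2) and 80.7% of their counts.

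Ordered by mean TPM, the 35 detected genes form 34 neighbouring pairs, and the libraries of 15 pairs did not overlap. The gaps fell below Gapdh, Aldoa, Pgam1, Mpc1, Pgd, Tkt, Pfkfb3, Pgls, Mpc2, Hk1, Pfkp, Pfkl, Pdk1, Rpia and Slc16a1. The other 19 neighbours overlapped, as Pgk1 did with Taldo1, Eno1 with Tpi1 and Gpi1 with Pgd.

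A further 41 genes of the same steps show which isozymes were and were not present beside these. Of them 20 had a mean of 1 TPM or more, where 39.3% of the 22015 nuclear-encoded protein-coding genes did. The other 21 lay below, and 10 had no count in either library. The share of all genes without a count is not given here, so these counts describe the list only. A count of 0 allows up to 3 counts per library. The 10 genes without a count were Hkdc1, Fbp2, Gapdhs, Pgk2, Pklr, Ldhc, Slc16a8, Tktl1, Tktl2 and Pdha2, most of them known from testis or other specialised tissues.

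Some of the further genes stood above their relatives among the 36. For glucose uptake, Slc2a6, a lysosomal hexose transporter, had 16.3 and 18.5 TPM, which was 4.16- and 3.26-fold the level of Slc2a1. Slc2a8 had 3.09 and 3.52 TPM, while Slc2a3, which encodes GLUT3, had 0.980 and 0.790 TPM and Slc2a4, the insulin-regulated GLUT4, 0.0200 and 0.0400 TPM. For lactate and pyruvate transport, Slc16a7, which encodes MCT2, had 12.3 and 13.9 TPM, or 3.61- and 3.22-fold the level of Slc16a3. Bsg, the chaperone that brings MCT1 and MCT4 to the cell surface, had 57.1 and 67.6 TPM. Slc2a1 thus stood above Slc2a3 and Slc2a4 and below Slc2a6.

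At the enolase step Eno2, the neuronal type, had 1.85 and 3.48 TPM and was 24.7- and 13.4-fold below Eno1, while Eno3, the muscle type, had 0.760 and 0.630 TPM. Eno1b, a retrogene close to Eno1, had 0.910 and 0.930 TPM. In the mutase step Bpgm had 1.12 and 0.930 TPM and Pgam2 0.220 and 0.410 TPM. Adpgk, a hexokinase that uses ADP, had 2.62 and 3.62 TPM. Tigar, which breaks down the activator that PFKFB enzymes make, had 1.15 and 1.11 TPM and Pfkfb1 0.230 and 0.350 TPM. All of these lay below the leading gene of their step among the 36.

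Of the remaining genes of the pyruvate dehydrogenase complex, Pdhb, which pairs with Pdha1, had 11.1 and 10.9 TPM, near the level of its partner. Dld had 15.9 and 15.7 TPM, Dlat 5.17 and 4.81 TPM and Pdhx 2.12 and 2.11 TPM. Among subunits of the phosphatases that switch the complex on, Pdp1 had 5.59 and 4.98 TPM and Pdp2 1.40 and 1.19 TPM. The regulatory subunit Pdpr had 2.78 and 2.95 TPM. Pdk2 had 1.69 and 1.47 TPM, and Pdk4 had 2 and 0 counts. Pcx, pyruvate carboxylase, had 0.0800 TPM in both. Among genes of glucose phosphate, Pgm1 had 4.82 and 5.15 TPM, Pgm2 4.91 and 5.28 TPM, and G6pc3, the widely expressed phosphatase, 4.18 and 5.52 TPM, whereas G6pc, the liver phosphatase, had 2 and 0 counts. In the pentose phosphate pathway H6pd, the dehydrogenase of the endoplasmic reticulum, had 2.58 and 3.97 TPM and Shpk, a sugar kinase, 0.520 and 0.340 TPM.

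**Figure D3:**
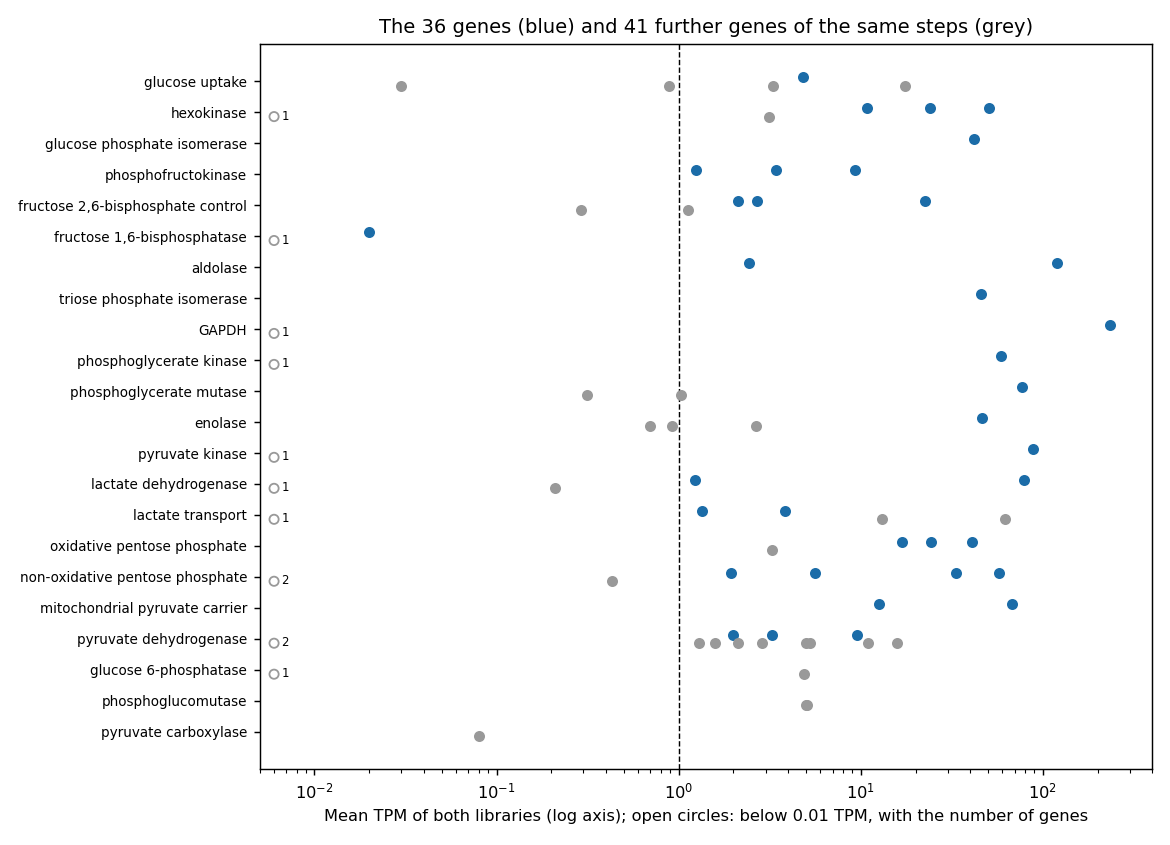
Mean TPM of both libraries, on a log axis, for the 36 genes (blue) and the 41 further genes (grey) by pathway step, with a dashed line at 1 TPM. Open circles with a number stand for genes below 0.01 TPM, and grey points lie right of blue ones for glucose uptake, lactate transport and pyruvate dehydrogenase.

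The transcript tables show which version of each gene the RNA came from. They estimate how reads divide among annotated transcripts, and they exist in 2 versions, here called the first and the second quantification, so shares are given from both. By the mean of the first quantification, a single transcript held 90% or more of the TPM in 16 of the 35 detected genes. The leading transcript held 50% to 90% in 15 and less than 50% in 4, namely Hk3, Pfkfb3, Pfkp and Pfkfb4. Among those with a single dominant transcript were Ldha (Ldha-202, 99.7% and 99.3%), Eno1 (Eno1-202, 99.7% and 99.0%), Pgam1 (Pgam1-201, 99.9% in each) and G6pdx (G6pdx-201, 99.0% and 96.8%). In the second quantification, the genes under 50% were Hk1 (39.1%), Pdk1 (44.0%) and Pfkfb3 (48.4%). Pdk1-201 thus held 94.8% of Pdk1 TPM in the first and 44.0% in the second. The leading transcript was annotated as protein-coding in 34 genes, and it was the same in both quantifications in 33, all except Pfkfb3 and Aldoc. Transcripts annotated as retaining an intron made up a median of 0.222% of a gene's TPM in the first quantification. There only Pfkp had a mean over 5% for these, with 9.31% in replicate 1 and 20.0% in replicate 2. In the second, the means over 5% were those of Pfkp (18.2%) and Pfkfb3 (7.35%). Shares over all detected genes are not given here for these counts, nor for the decay-annotated transcripts below. The counts therefore do not set these genes apart from others.

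For pyruvate kinase the downstream exon printed above prevailed. Pkm-201, with the M2 exon, held 87.2% of Pkm TPM in replicate 1 and 88.6% in replicate 2. Pkm-202, with the M1 exon, held 12.0% and 10.8%. The second quantification gave 86.7% and 87.6% for Pkm-201 and 11.5% and 9.96% for Pkm-202, so that the share of Pkm-201 moved by less than 2 percentage points between libraries and quantifications. The 2 transcripts have coding sequences of the same length, 1593 bases, and Pkm-201 is also longer at its ends.

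The exclusive exons of Pfkp were more evenly used, as judged by the leading transcript with each. Pfkp-212 and Pfkp-203, which hold the exons of Pfkp-201 and Pfkp-207 respectively, are left out of these shares. Pfkp-201 held 49.0% and 43.1% of Pfkp TPM and Pfkp-207 held 41.6% and 35.5%. In the second quantification Pfkp-201 had 61.2% and 48.3% and Pfkp-207 had 22.6% and 17.3%. By counts, which favour the longer Pfkp-207 (4145 against 2679 bases), Pfkp-207 led with 48.4% against 36.2%. Both exons were thus assigned RNA in each setting, but their ratio depended on the estimate.

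Of the Hk1 starts shown above, Hk1-202 and Hk1-201 shared most of the RNA. Hk1-202, whose start resembles that of Hk2, held 62.1% and 50.5%, and Hk1-201 held 34.8% and 45.0%. The second quantification gave Hk1-202 43.0% and 35.1%, Hk1-201 32.7% and 41.0%, and Hk1-205 20.2% and 14.3%, where the first gave Hk1-205 0%. By the mean of both libraries Hk1-202 led in each quantification, but Hk1-201 stood above it in replicate 2 of the second.

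The transcript shares of Hk2 and Hk3 differed between the quantifications. Hk2-201, which codes for the enzyme, held 66.6% and 67.9% of Hk2 TPM in the first and 97.2% and 93.2% in the second quantification. The difference lay in Hk2-202, a noncoding model of 594 bases that lies wholly within the 5513 bases of Hk2-201 and holds none of its coding bases. It was given 32.8% and 31.0% of the TPM in the first, though 3.24% of the counts, and 0% in the second. Hk3-201 held 44.3% and 28.8%, Hk3-208 31.3% and 41.1%, and Hk3-204, annotated as subject to nonsense-mediated decay, 17.2% and 22.8%. The second quantification gave Hk3-201 75.6% and 63.5%, Hk3-208 12.8% and 20.1% and Hk3-204 1.85% and 4.42%. In both, Hk3-201 was lower and the shorter transcripts were higher in replicate 2.

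Tkt was the only detected gene led by a transcript not annotated as coding. Tkt-209, of 1962 bases, held 77.0% and 79.0% of Tkt TPM, and 85.4% and 84.4% in the second quantification. Tkt-201, the coding transcript of 3223 bases, held 20.1% and 20.2%. Tkt-209 contains 1762 of the 1869 coding bases of Tkt-201, or 94.3%, and the annotation gives it another first exon and a shorter end. Whether it is translated was not measured.

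**Figure D4:**
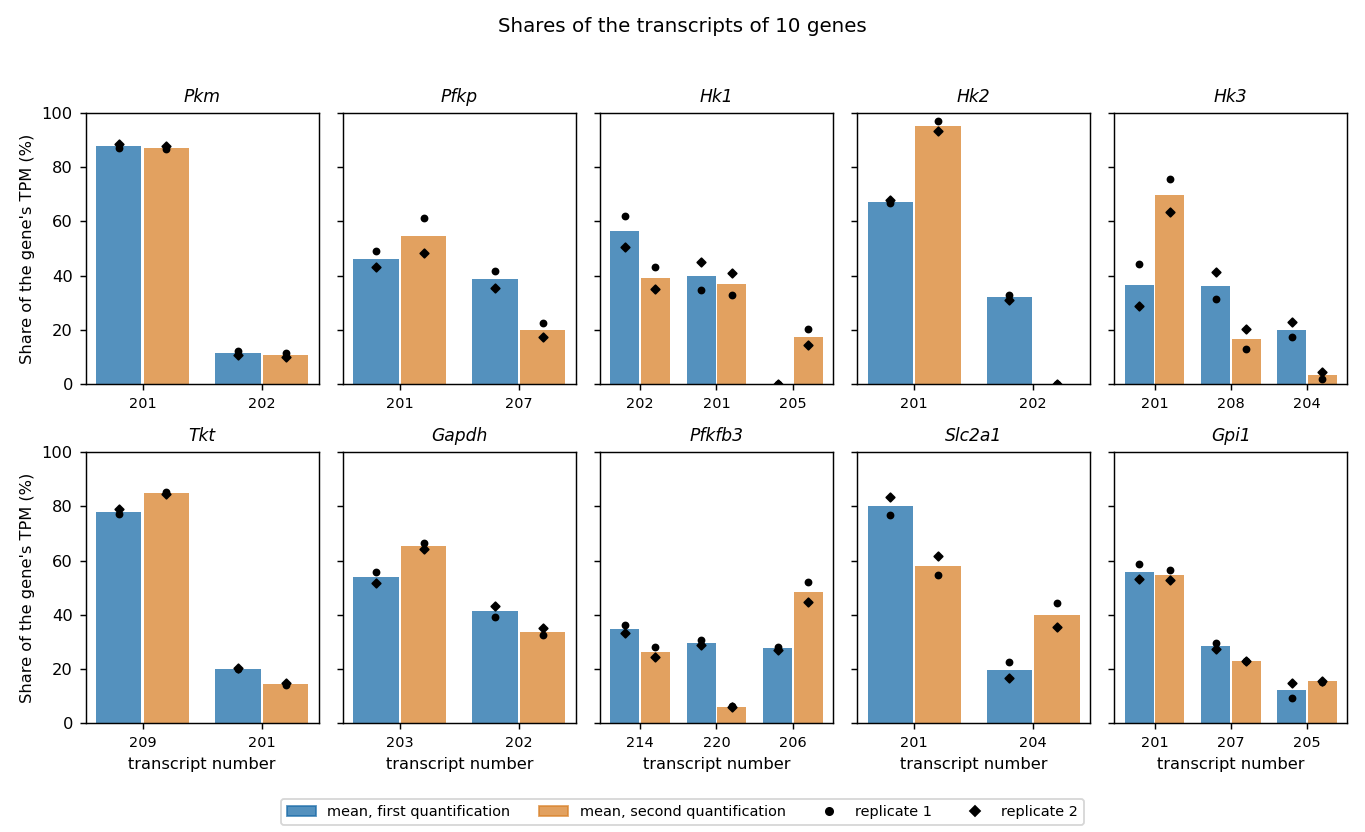
Share of each gene's TPM, in percent, for the transcripts that held 10% or more in either quantification, for 10 genes. Bars are means of both libraries in the first (blue) and second (orange) quantification, and points are the libraries, with Pkm-201 at 87.9% in the first and 87.2% in the second and Hk3-201 at 36.6% and 69.6%.

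For Pfkfb3, transcripts with the cassette exon shown above held a minority in every estimate. Over the 16 transcripts that span the site, the 5 with the exon held 37.2% and 35.7% of the TPM in the first and 30.6% and 29.3% in the second quantification. Pfkfb3-214, with the exon, had 36.2% and 33.4% and led in the first. Pfkfb3-206, which is the same in coding sequence except for these 87 bases, had 28.1% and 27.1% there and led the second with 52.0% and 44.8%. The third transcript, Pfkfb3-220, had 30.5% and 28.8% in the first and 6.31% and 5.90% in the second.

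By the mean of the first quantification, transcripts annotated as targets of nonsense-mediated decay held 5% or more of TPM in 5 genes, Hk3, Gpi1, Slc2a1, Pfkfb4 and Pfkfb2. In the second, Hk3 had 3.13% and Rpe 5.94%, and Gpi1, Slc2a1, Pfkfb4 and Pfkfb2 were again above 5%. For Slc2a1, the coding Slc2a1-201 held 77.0% and 83.5% and the decay-annotated Slc2a1-204, which lacks 163 of its coding bases, held 22.5% and 16.5%. The second quantification put Slc2a1-204 at 44.5% and 35.4%. For Gpi1, the decay-annotated Gpi1-207 of 933 bases held 29.6% and 27.3%, and 23.0% and 22.8% in the second, beside 58.9% and 53.0% for the coding Gpi1-201. Since Gpi1-207 is short, its shares in the first quantification came from 11.5% of the counts there.

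In the other genes with more than 1 sizeable transcript, the shares were as follows. Gapdh-203 held 56.0% and 51.6% and Gapdh-202, whose coding sequence is 78 bases longer, 39.3% and 43.3%. In the second quantification Gapdh-203 had 66.5% and 64.3% and Gapdh-202 had 32.6% and 35.0%. Taldo1-201 held 88.0% and 82.4% and the noncoding Taldo1-205 11.8% and 17.3%, where the second quantification gave Taldo1-205 0%. Mpc2-201 held 60.9% and 69.6% and the noncoding Mpc2-203 38.7% and 30.1%, where the second gave Mpc2-203 32.8% and 17.3%. Pfkm-201 held 64.8% and 58.6%, with the remaining 35.2% and 41.4% on Pfkm-205 in the first and 21.3% and 41.7% on Pfkm-202 in the second quantification. All 3 Pfkm transcripts have 2340 coding bases. For Slc16a3, Slc16a3-201 held 47.5% and 54.1%, and 60.3% and 60.6% in the second. For Pfkfb2, Pfkfb2-203 held 69.3% and 70.9%, and 54.4% and 57.9% in the second. For Pfkfb4, Pfkfb4-203 had 60.6% and 35.7% and Pfkfb4-201 21.2% and 36.1%, so that their rank differed between libraries, while the second quantification put Pfkfb4-203 first in both with 78.3% and 53.2%, against 0% and 12.8% for Pfkfb4-201. Aldoc-201 held 64.1% and 53.0% and Aldoc-202, with the same 1089 coding bases and a shorter length, 32.4% and 41.9%, while the second quantification put Aldoc-202 first with 60.7% and 64.2%.

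Several of the genes have near copies elsewhere in the genome, which could take or lend reads. In a search for transcripts of other genes that matched at least 50% of a coding sequence at 85% identity or more, 16 of the 36 genes had such a copy, and 305 of the 319 copies were annotated pseudogenes. The share of all genes with such a copy is not given here, so the count of 16 does not set the 36 genes apart. Gapdh had 253 copies and Ldha 22. Pseudogenes received 3.91% and 4.72% of the counts of Gapdh and its pseudogenes together, most of them at Gm7336 (7.82 and 7.63 TPM), and 1.45% and 2.22% in the second quantification. For Pgk1 the share was 4.36% and 4.60%, and 3.96% and 8.32% in the second. For Mpc1 it was 3.65% and 4.51%, and 0.0348% and 0% in the second. Eno1b received 162 and 139 counts in the first quantification, and its level in the second was 0.0165 times that in the first. For Ldhb the pseudogene share was 0.850% and 1.54% in the first. These shares leave out copies not annotated as pseudogenes, such as Peli2, a copy for Gapdh with 2208 and 1414 counts. The values show reads assigned to copies, so the levels of Gapdh, Pgk1, Mpc1 and Eno1 are uncertain. They do not bound that uncertainty, since reads wrongly kept by a gene are not seen.

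Exons of 17 of the 36 genes overlap exons of another gene, in 9 of them over 10% or more of the exonic bases. The sources used here do not give whether counting used strand, so reads of opposite genes may not be separable. The neighbours with sizeable counts there were Ikbkg, which lies opposite 13.6% of the exonic bases of G6pdx and had 1973 and 1641 counts, and Kansl1l, opposite 17.9% of those of Rpe, with 1001 and 813 counts. The share of all genes with such overlaps is not given here, so the count of 17 does not set the 36 genes apart.

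The libraries gave close values for most of the genes. The ratio of replicate 2 to replicate 1 was taken from counts scaled by TMM, with a 95% interval for counting error only, for the 35 genes whose counts averaged at least 100. Of these, 28 lay within 1.2-fold, against 74.3% of the 10091 genes with such counts. None was 1.5-fold or more higher in replicate 2, where 3.53% of all genes were, and 1, Aldoc, was 1.5-fold or more lower, where 1.32% were. The median log2 ratio was 0.01 for these genes and -0.02 for all genes, and the median absolute log2 ratio was 0.11 and 0.15.

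The ratios that left 1 were spread over the steps. Aldoc had 715 and 388 counts and a ratio of 0.621 (95% interval 0.547 to 0.704). Slc2a1 had 1272 and 1594 counts and a ratio of 1.43 (1.33 to 1.55), and Pfkfb3 had 9096 and 10719 counts and a ratio of 1.35 (1.31 to 1.39). Slc16a3 followed at 1.248, Hk3 at 1.21 and Pkm at 1.19, and Pfkp lay between these last with an interval from 1.14 to 1.26. On the lower side Mpc1 had 0.834, Rpe 0.859, Tpi1 0.869 and Gapdh 0.892. The interval left out 1 for 21 genes, 11 higher and 10 lower in replicate 2, so for these the libraries differed by more than counting error. Such intervals narrow as counts rise, as for Gapdh (0.878 to 0.908). The share of all genes whose interval left out 1 is not given here, so the count does not set these genes apart. Ldhb, at 1.24, had 119 and 129 counts and an interval from 0.960 to 1.61. The nuclear RNAs Malat1 and Neat1 moved 4.68- and 4.06-fold in the same direction as Slc2a1 and Pfkfb3, and their part in these ratios was not tested.

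**Figure D5:**
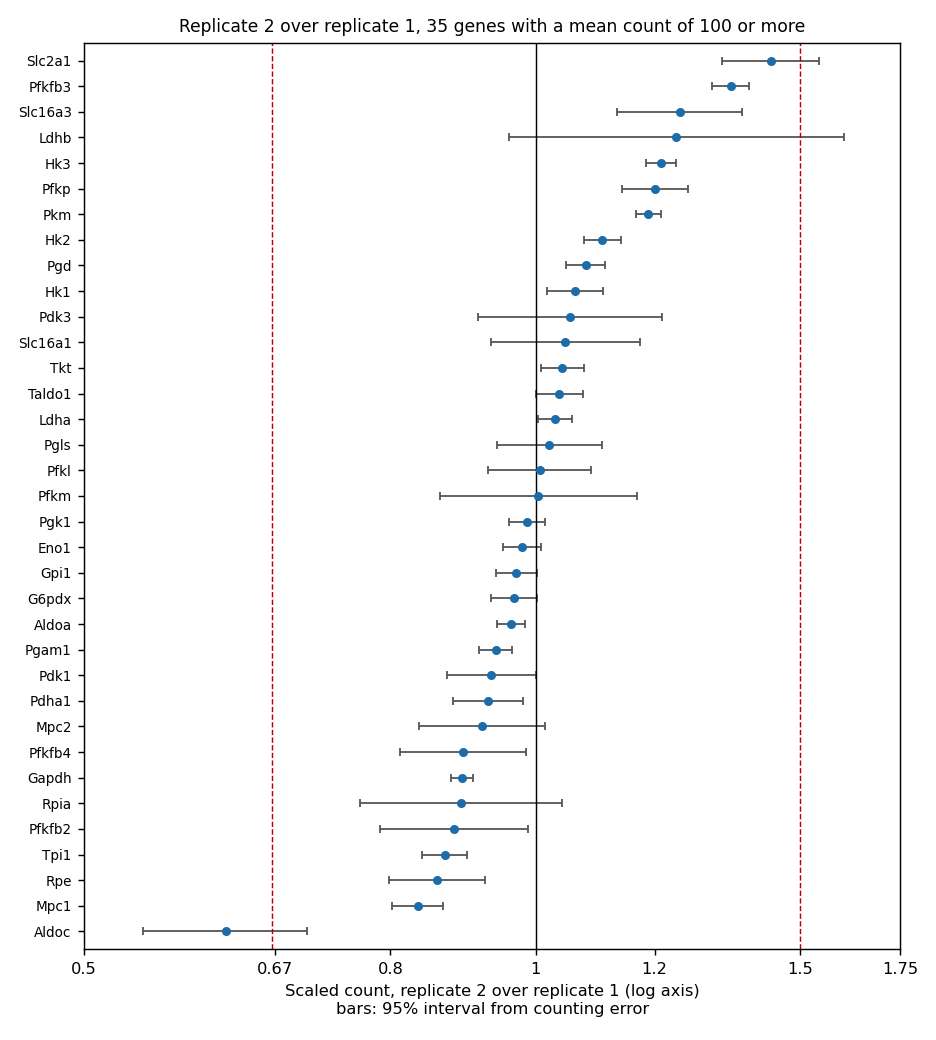
Scaled count of replicate 2 over replicate 1 on a log axis for the 35 genes that averaged at least 100 counts, with 95% intervals from counting error and dashed lines at 1.5-fold in either direction. Aldoc at 0.621 was the only point outside the lines, and Slc2a1 at 1.43 the highest.

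The gene levels themselves depended little on the quantification. Compared as TPM rescaled over protein-coding genes, none of the 35 detected genes moved by 1.5-fold or more between the first and the second quantification, where 1.98% of 8644 detected protein-coding genes did. Of the 35, 28 lay within 1.1-fold, against 72.0% of those genes. The largest moves were Pdk1, at 1.45 times its first value, and Hk2, at 0.708 times. In both genes noncoding models changed their share, Hk2-202 as given above and Pdk1-206 and Pdk1-208, which held 0% and 4.28% of Pdk1 TPM in the first and 18.1% and 33.3% in the second. Pfkfb2 at 1.211 and Pfkp at 1.199 were next among those that rose, and Ldhb at 0.871 and Mpc2 at 0.884 among those that fell. Some further genes with low levels moved more. Pgam2 was at 5.21 times its first value, which put it above Bpgm in the second quantification. Pcx was at 5.37 times, with 0.365 and 3.59 TPM on the protein-coding scale there, and Slc2a3 at 1.63 times.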

How the data were processed

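2 libraries of 1 group were analysed. Genome build mm10 and annotation M21 are named in the deposited files; aligner, quantification tools and use of strand: not given in the sources used here. Estimates called the first quantification, deposited by the authors as gene and transcript tables made from transcriptome alignments, give estimated (expected) counts and TPM per library, with a posterior SD of each count. The second, deposited as transcript tables made directly from reads, gives estimated counts and TPM; these were summed per gene. From the deposited TPM, means, SDs and shares within families and genes were computed, and TPM was also rescaled over nuclear-encoded protein-coding genes to compare quantifications. Ratios used expected counts rounded to whole numbers, TMM scaling in edgeR 4.0.16 (R 4.3.3) and a prior count of 0.5, with exact Clopper-Pearson 95% intervals that cover counting error only; the ratio code was tested on simulated data. The posterior SD of the 35 detected genes was at most 0.617% of the count. Copies were searched with blastn 2.17.0, and values were computed in Python 3.11.15. Every one of the 36 genes could be named, as could further pathway genes at 1 TPM or more or that complete the isozymes of a step, and transcripts with a share of 10% or more; the copy search, the overlaps and some transcripts were chosen after the data were seen. The 36 genes and the other lists were chosen with earlier results of these data known. 2 genes carry the symbol Aldoa, of which the other had 0 and 1 counts. Some further genes of these steps are not reported here. Alternatives were DESeq2 1.42.0 size factors, totals, other thresholds and filters, the second quantification and each library left out.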

Additional observations from a re-analysis of the deposited data

How the results depend on the processing

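The number of genes at 1 TPM or more stayed at 35 with a line of 0.5 TPM, on the protein-coding scale, in the second quantification and without replicate 1 or 2, and was 23 at 5 TPM. The median of 14.7 TPM became 67.8 TPM on the protein-coding scale, by construction, and there the second quantification gave 64.8 TPM. Of the further pathway genes 20 passed, 23 at 0.5 TPM, 26 on the protein-coding scale and 7 at 5 TPM. With the further pathway genes left out, the leading gene of all 8 families was the same in the second quantification, by counts and in either library. Slc16a7, which stood above Slc16a3, is thus not part of this comparison, nor is Pdk2. The leading transcript was the same for 33 of 35 genes in the second quantification, for 34 by counts (not Pfkp) and for 33 to 35 without one library (Hk3 and Pfkfb4 differed in replicate 2). The number of genes 1.5-fold or more apart between libraries was 1 with DESeq2 size factors, total counts, the second quantification or a minimum mean count of 10; it was 2 with no filter, where Fbp1 with 1 and 2 counts joined, 3 past a threshold of 0.32 on the log2 scale (with Slc2a1 and Pfkfb3) and 0 past 2-fold. The median log2 ratio of 0.01 was -0.04 with total counts and -0.077 in the second quantification, so its sign is not settled; the cause was not tested. No gene was 1.5-fold apart between quantifications, nor 2-fold, and 0 to 1 when a library was left out. Ratios cannot be computed without a library. No paired analysis was possible because there is only 1 group. Depth limits Fbp1 and the genes with no count, and the 2 libraries limit every SD.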
